A study of Zea mays with 12 samples.

Results

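The mRNA stored in dry maize seeds was compared between the *ereb92-6* mutant and its wild type KN5585 at 0 hours after imbibition (HAI). Of the 12 RNA-seq libraries of the series, 6 were compared here, the 3 labelled *ereb92*_0h and the 3 labelled KN5585_0h. The other 6 libraries, of the same 2 genotypes at 6 HAI, served as a second set in which each difference was read again. KN5585 is the maize line that serves as the wild type, and *ereb92-6* carries a knockout of *ZmEREB92* made by CRISPR/Cas9 editing, which cuts a chosen site in the genome and leaves small sequence changes there. *ZmEREB92* encodes a transcription factor of the AP2/ERF family, whose members bind DNA and include many factors of ethylene and stress responses. The labels give no other treatment and no seed age, and whether seeds of 0 HAI were wetted during surface sterilization is not stated. The mutant is represented by 1 line, so the mutation, other sequence differences between this line and KN5585, and the seed lots cannot be told apart. Whole seeds were used, and fewer cells of a type and less RNA per cell cannot be told apart in such samples.

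A mature dry seed is metabolically quiet, but it holds mRNA made while the seed matured on the mother plant. These stored transcripts include those of late embryogenesis abundant (LEA) proteins, dehydrins, oleosins that coat oil bodies, and storage proteins, and part of them is translated when the seed takes up water. The question was which transcripts already differ in the dry seeds of the mutant, what their genes do, and where these lie in the genome.

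The 6 libraries held 13445201 to 15299334 counted reads each, and 28129 to 30702 of the 55529 listed genes had counts. A level of 3 counts, taken as the smallest that this depth can show, equalled 0.174 to 0.272 CPM (counts scaled to a common library size), and this limit covers counting error only. By FPKM, a level per gene length, the gene with the highest mean level was Zm00001d002768, oleosin Zm-I, at 67818 ± 18147 FPKM in KN5585_0h and 48038 ± 31323 in *ereb92*_0h (SD, n = 3), followed by metallothionein2 (Zm00001d029778) and the dehydrin DHN1 (Zm00001d037894). Genes of the plastid genome summed to 0.127 to 2.09 CPM, and the 83 genes of the green tissue list, of which 29 could be tested, summed to 367 to 554 CPM. One wild-type library, KN5585_0h replicate 1, stood apart. It correlated with its replicates across genes at r = 0.881 and 0.892 on log2 CPM (0.948 between the other KN5585_0h libraries and 0.911 to 0.927 among the *ereb92*_0h libraries), and 0.342% of its counts fell on the mitochondrial genome, whereas the remaining 5 held 0.0325% to 0.0687% there.

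The edited gene itself, *ZmEREB92* (Zm00001d000339, contig B73V4_ctg23, 49432 to 50133), had 96, 25 and 27 counts in KN5585_0h against 126, 17 and 82 in *ereb92*_0h. The groups overlapped, with 4.11 ± 3.99 and 4.54 ± 3.07 CPM (SD, n = 3) and a log2 fold change of 0.16 (SE 0.80). The sign of this value turned when KN5585_0h replicate 2 (-0.23), KN5585_0h replicate 3 (-0.17) or *ereb92*_0h replicate 1 (-0.36) was left out. At 6 HAI it had 205, 71 and 374 counts in KN5585_6h against 4146, 3115 and 895 in *ereb92*_6h, without passing the test (log2 fold change 3.33, SE 0.79, adjusted p = 0.104). Counts over the gene do not show the edit, so they gave no check of the genotype labels. The reference gene *ZmEF1a* (Zm00001d009870), which encodes a translation elongation factor, had 2696, 4134 and 3708 counts in KN5585_0h against 5076, 4568 and 5148 in *ereb92*_0h, which was 0.27 higher on the log2 scale (SE 0.17, adjusted p = 0.667). The study lists the genes around *ZmEREB92* on chromosome 8, and 11 of these were in the count table, between 123786952 and 124166575. Of these, 6 could be tested, with a median log2 fold change of -0.05, and 0 passed the test (0 also at an unadjusted p and with DESeq2). The AP2/ERF gene of that list, Zm00001d010676, had 66, 43 and 18 counts in KN5585_0h against 76, 60 and 44 in *ereb92*_0h, with overlapping groups.

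Of 22610 genes with enough counts to be tested, 60 (0.265%) differed between the genotypes. Genes were called differentially expressed (DEGs) when edgeR's quasi-likelihood test gave an adjusted p (Benjamini-Hochberg) under 0.05 and the change was at least 2-fold. Of these, 38 (0.168%) were higher and 22 (0.0973%) were lower in *ereb92*_0h. The 60 DEGs were of low to moderate abundance. Those higher in the mutant had a median of 20.9 CPM in *ereb92*_0h and 0.325 CPM in KN5585_0h, and those lower had 18.6 CPM in KN5585_0h and 0.10 CPM in *ereb92*_0h. In all 60 the 3 libraries of 1 genotype lay above the 3 of the other, which held for 16.6% of all genes tested. The plot of change against level shows the 60 DEGs against all genes tested, and the median change of all genes was -0.01 on the log2 scale (0.13 when only library size was used for scaling). The common dispersion between replicates was 0.170. With the p left unadjusted and the same 2-fold limit, 607 genes (2.68%) passed as higher and 738 (3.26%) as lower. Without KN5585_0h replicate 1, 106 genes were higher and 105 lower, and all of the 60 were among them. The counts fell to 9 and 7 without KN5585_0h replicate 2, to 3 and 1 without KN5585_0h replicate 3, to 25 and 19 without *ereb92*_0h replicate 1 and to 26 and 16 without *ereb92*_0h replicate 2, and were 40 and 35 without *ereb92*_0h replicate 3. In these 6 fits the 60 DEGs kept their direction. Without overlap between the groups it had little room to change, so nothing is read from this. Of the 60 DEGs, 4 passed the test in each fit, beta tubulin6 and 3 unannotated loci on contig B73V4_ctg142, chromosome 7 and chromosome 2.

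**Figure D1:**
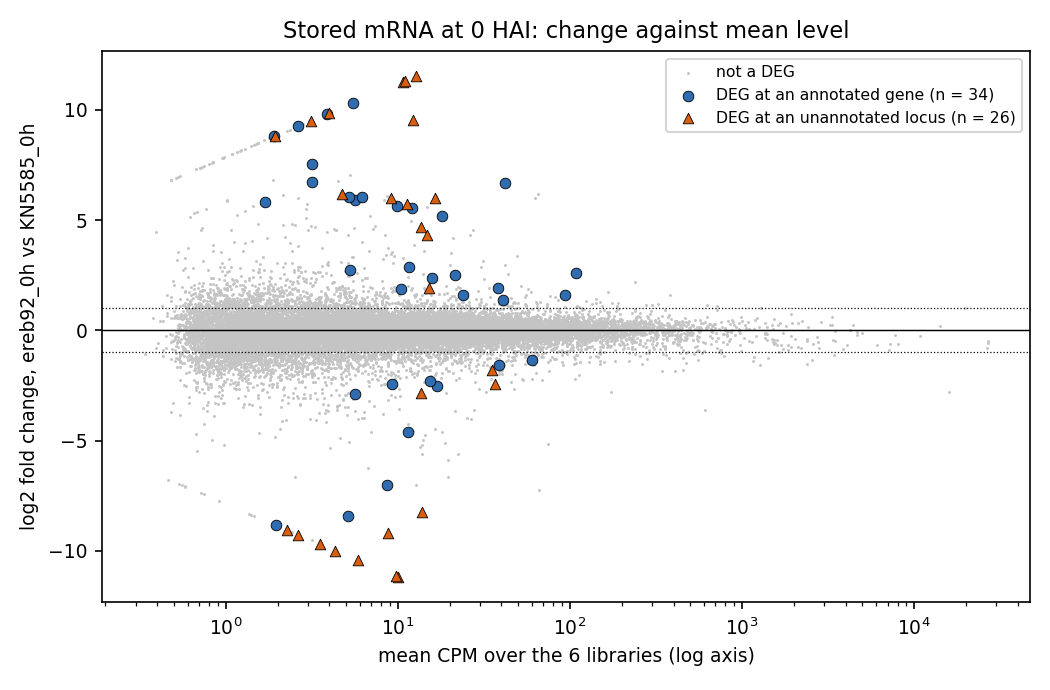
Change of each of the 22610 genes tested at 0 HAI. The horizontal axis is the mean CPM over the 6 libraries (log axis), the vertical axis is the log2 fold change of ereb92_0h vs KN5585_0h, grey points are genes that are not DEGs, circles are the 34 DEGs at annotated genes, triangles are the 26 at unannotated loci, and dotted lines mark a 2-fold change; the DEGs lie at log2 changes of 1.37 to 11.54 and of -1.36 to -11.20, and the lines of points at low CPM are genes at 0 in 1 group.

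Of the 60 DEGs, 34 were annotated genes and 26 were unannotated loci. The latter are listed in the deposited table with coordinates, and in part with a protein domain, under identifiers outside the annotated gene set. How they were made is not given in the sources used here, and they are named below by their position.

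The differences fell into 2 kinds. In 27 DEGs the mRNA was present in 1 genotype only, with at most 3 counts in every library of the other, and in 18 of these the other genotype had 0 counts in each library. In 20 DEGs the mRNA was present in both genotypes and differed by less than 8-fold, with fold changes of 2.57 to 7.45. The remaining DEGs lay between these. The heat map of counts shows both kinds, together with the libraries of 6 HAI.

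**Figure D2:**
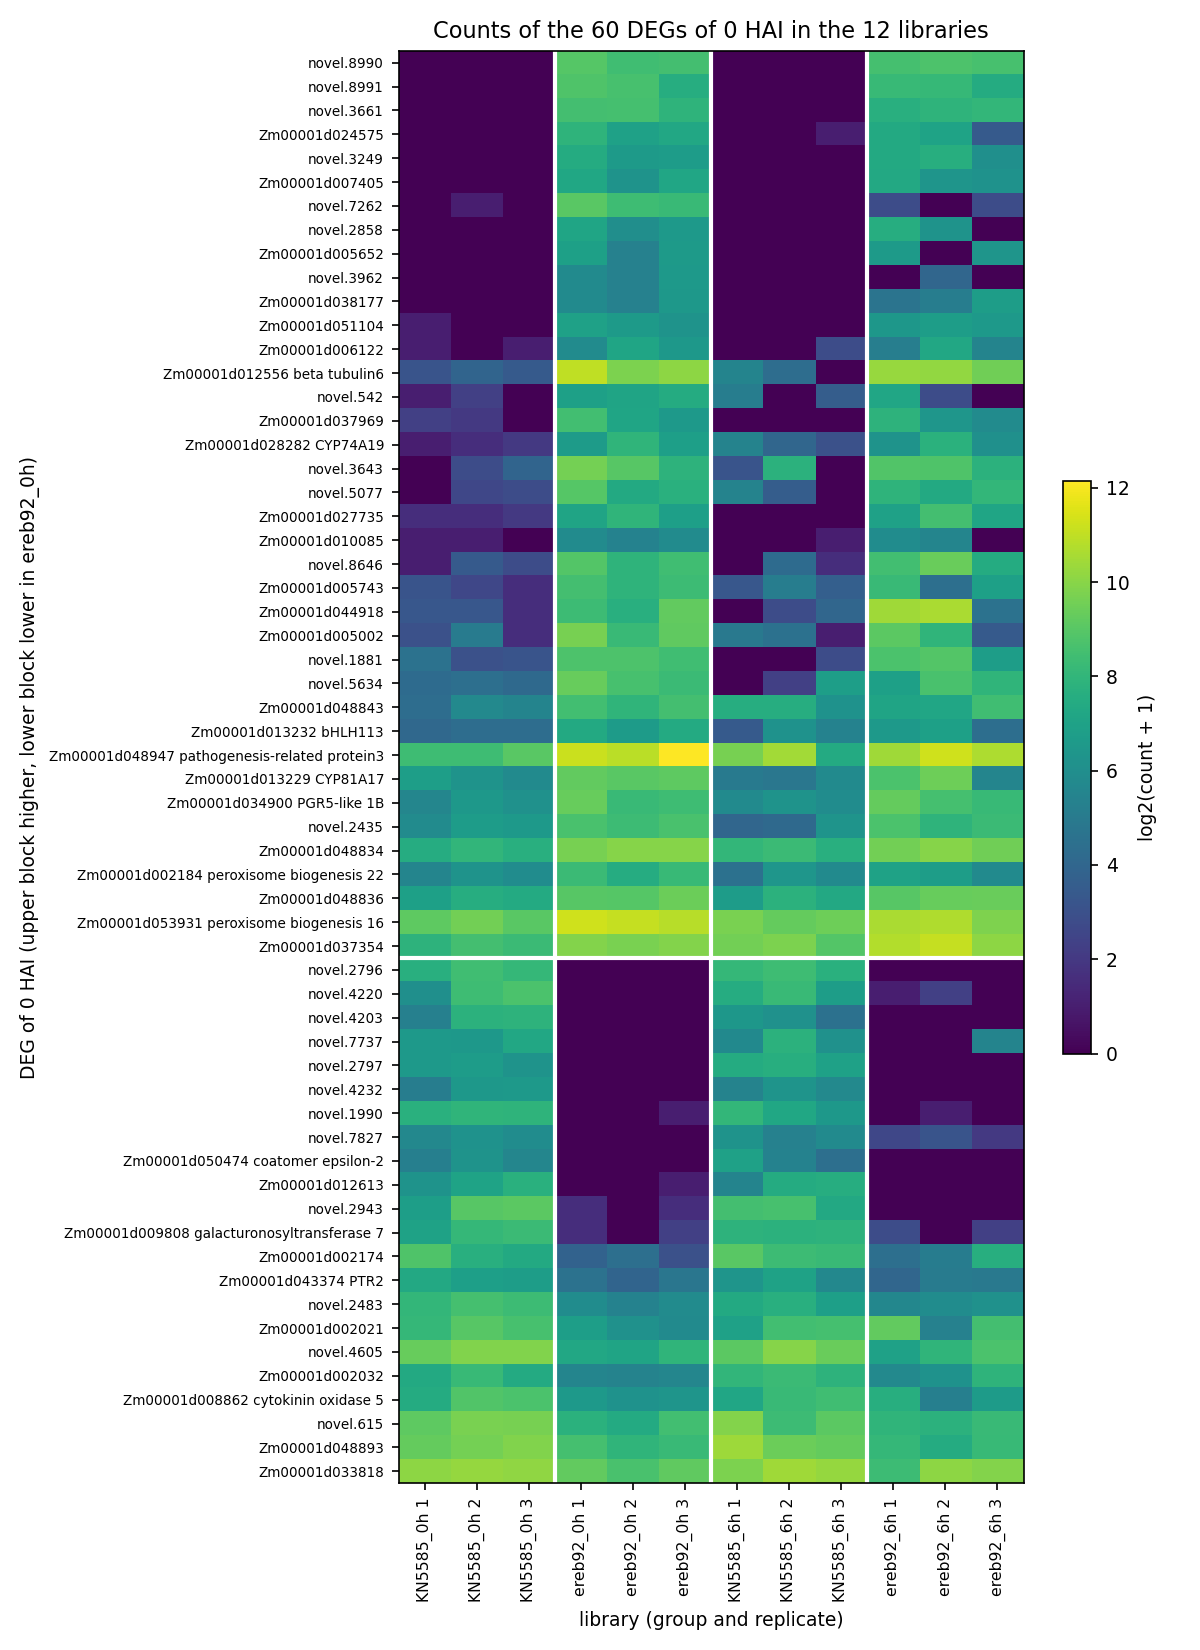
Counts of the 60 DEGs in the 12 libraries, as log2(count + 1) in colour. Rows are genes, the upper 38 higher and the lower 22 lower in ereb92_0h, each ordered by log2 fold change; columns are libraries, with the 6 of 0 HAI on the left and the 6 of 6 HAI on the right; the dark blocks are genes at or near 0 counts in 1 genotype, and most are dark in the same genotype at both times. Row labels that do not begin with Zm are the identifiers of the unannotated loci.

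The DEG with the smallest adjusted p was a tubulin gene. Beta tubulin6 (Zm00001d012556, chromosome 8, 176577453 to 176580718) encodes a subunit of microtubules, the hollow filaments that guide cell wall deposition and separate chromosomes. It had 8, 14 and 10 counts in KN5585_0h against 2017, 863 and 1105 in *ereb92*_0h. The lowest mutant library was far above the highest wild-type library, and the level was 0.790 ± 0.0868 CPM against 82.9 ± 29.8 CPM (SD, n = 3), higher by 6.69 on the log2 scale (SE 0.35, adjusted p = 0.00121). An unannotated locus with a tubulin domain (chromosome 3, 92007391 to 92008261) was also a DEG. It had 0 counts in every KN5585_0h library and 177, 98 and 105 in *ereb92*_0h, which was at least 34.8-fold higher (fold bounds here and below set the absent group at 3 counts in each library). Reads that fit several tubulin genes could be split between them, and how the counting treated such reads is not stated.

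Of the other genes with mRNA in the mutant only, 2 lay on the unplaced contig B73V4_ctg142. They were the unannotated loci at 563002 to 587001, whose domains are those of a gypsy-type retrotransposon, and at 671359 to 678129, with no domain. The first had 497, 344 and 369 counts in *ereb92*_0h and the second 453, 387 and 189, and both had 0 in each KN5585_0h library. These were at least 112-fold and at least 96.3-fold higher. On chromosome 3, the locus at 69493126 to 69498246 had 364, 383 and 239 counts against 0 in each wild-type library, at least 92.9-fold higher. On chromosome 7, the locus at 54544778 to 54629325 had 527, 336 and 302 counts in the mutant and 1 count in all KN5585_0h libraries together, a ratio of 991 with a 95% counting interval of 178 to 39187.

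Annotated genes of this kind included genes described as an ATPase inhibitor and as an enzyme of the cell wall. Zm00001d024575 (chromosome 10, 78839665 to 78843440), described as an F1F0-ATPase inhibitor protein, which in mitochondria keeps ATP synthase from running in reverse, had 0 counts in each KN5585_0h library and 242, 125 and 154 in *ereb92*_0h, at least 47.5-fold higher. Zm00001d005652, described as the xylosyltransferase IRX14, which in Arabidopsis takes part in building the xylan backbone of secondary walls, had 118, 39 and 98 counts against 0 in each wild-type library. The domain listed for this gene is that of protein kinases, which its description does not name, so its function is uncertain. Zm00001d038177, a probable carboxylesterase, had 55, 39 and 88 counts against 0. Zm00001d051104, Zm00001d007405 and Zm00001d006122, with no description, and an unannotated locus on chromosome 2 (166113041 to 166116392) with the domain of a sodium/calcium exchanger had 57 or more counts in every mutant library and at most 1 count in any KN5585_0h library. Each of these 7 genes was a DEG, with log2 fold changes of 6.72 to 10.31 that rest on the absent group. Also of this kind were Zm00001d010085, a loricrin-related gene (58, 41 and 58 against 1, 1 and 0), and a locus on chromosome 3 (224493067 to 224494369) with the zinc-binding domain of reverse transcriptases (55, 39 and 91 against 0).

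Other genes were absent or nearly absent from the wild type. The gene named allene oxide synthesis2 (Zm00001d028282, CYP74A19, chromosome 1, 29125756 to 29127204) belongs to the cytochrome P450 enzymes that turn fatty acid hydroperoxides into the precursor of jasmonate. It had 1, 2 and 3 counts in KN5585_0h against 101, 246 and 114 in *ereb92*_0h, higher by 6.03 on the log2 scale (SE 0.69, adjusted p = 0.0194). It was the only DEG, by edgeR and by DESeq2, of the 41 tested genes of the jasmonate and oxylipin list, of which 4 were higher and 2 lower at the unadjusted p, with a median log2 fold change of -0.02. The abundant member of that list, allene oxide synthase1 (Zm00001d048021), had 3063, 8313 and 5027 counts in KN5585_0h against 6019, 9564 and 7583 in *ereb92*_0h, with overlapping groups and a log2 fold change of 0.36 (SE 0.33).

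Zm00001d037969, a protease inhibitor of the potato inhibitor I family, had 4, 3 and 0 counts in KN5585_0h against 353, 141 and 92 in *ereb92*_0h. Zm00001d027735, a serine/threonine protein kinase, had 2, 2 and 3 against 137, 251 and 115. Zm00001d005002, a probable peptide/nitrate transporter of the cell membrane, had 7, 32 and 2 against 807, 304 and 591. Their log2 fold changes were 6.03, 5.92 and 5.17. The undescribed genes Zm00001d005743 and Zm00001d044918 were higher by 5.63 and 5.53 on the log2 scale, and 6 unannotated loci by 4.32 to 6.16. One of these, on chromosome 9 (6403920 to 6427789), carried integrase and GAG domains of retrotransposons and had 1, 10 and 6 counts against 479, 235 and 345. A transposase-like endonuclease domain was listed for a locus on chromosome 5 (19291054 to 19293456), with 0, 5 and 6 against 496, 164 and 209 counts. The domain of MURB, the second protein of the maize MuDR transposon, was listed for another (chromosome 5, 57319057 to 57320200), which had 18, 21 and 17 counts in KN5585_0h against 635, 388 and 315 in *ereb92*_0h (log2 fold change 4.32, SE 0.34, adjusted p = 0.00459). The other 3, at 275318805 of chromosome 1, 2060287 of chromosome 2 and 55168876 of chromosome 3, had no domain.

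Among transcripts present in both genotypes, 11 were higher in the mutant by less than 8-fold. They included 2 genes of peroxisome biogenesis. No list of peroxisome genes was formed, so how its other members changed is not given here. Peroxisomes carry out the beta-oxidation by which an oilseed embryo uses its stored fat. Zm00001d053931, described as peroxisome biogenesis protein 16, which acts in forming the peroxisome membrane, had 565, 760 and 524 counts in KN5585_0h against 2485, 2165 and 1874 in *ereb92*_0h, or 46.3 ± 6.14 and 140 ± 21.9 CPM (SD, n = 3). It was 3.01-fold higher (log2 fold change 1.59, SE 0.20, adjusted p = 0.0273). Zm00001d002184, described as peroxisome biogenesis protein 22, which in Arabidopsis holds a ubiquitin-conjugating enzyme at the peroxisome, had 46, 75 and 59 counts against 309, 181 and 296 (log2 fold change 1.88, SE 0.27, adjusted p = 0.0459). In both genes every mutant library lay above every wild-type library. The most abundant of all DEGs in the mutant was pathogenesis-related protein3 (Zm00001d048947, chromosome 4, 10513764 to 10514291), of a class of defence proteins, with 332, 337 and 532 counts in KN5585_0h against 2334, 1928 and 4563 in *ereb92*_0h, 6.10-fold higher (SE 0.36 on the log2 scale, adjusted p = 0.0401).

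Other genes of this kind were Zm00001d013229, the cytochrome P450 CYP81A17 (111, 75 and 56 counts against 608, 535 and 571), and Zm00001d013232, the transcription factor bHLH113 (16, 19 and 19 against 168, 101 and 171). These lie near each other on chromosome 5, with starts 28232 bases apart. Zm00001d034900, described as a chloroplast PGR5-like protein, which in Arabidopsis takes part in cyclic electron flow around photosystem I, had 47, 88 and 71 counts in KN5585_0h against 639, 306 and 332 in *ereb92*_0h (log2 fold change 2.39, SE 0.31, adjusted p = 0.0294). The gene math-btb9 (Zm00001d048843), of a class of proteins that present targets to a ubiquitin ligase, had 19, 52 and 44 against 356, 243 and 368. The smallest change among the genes higher in the mutant was that of Zm00001d037354, an alpha/beta hydrolase with a lipase domain, at 231, 372 and 310 against 969, 831 and 945 counts (2.58-fold, adjusted p = 0.0239). The remaining ones were Zm00001d048834 and Zm00001d048836 on chromosome 4, and an unannotated locus on chromosome 2 (230041539 to 230045100).

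**Figure D3:**
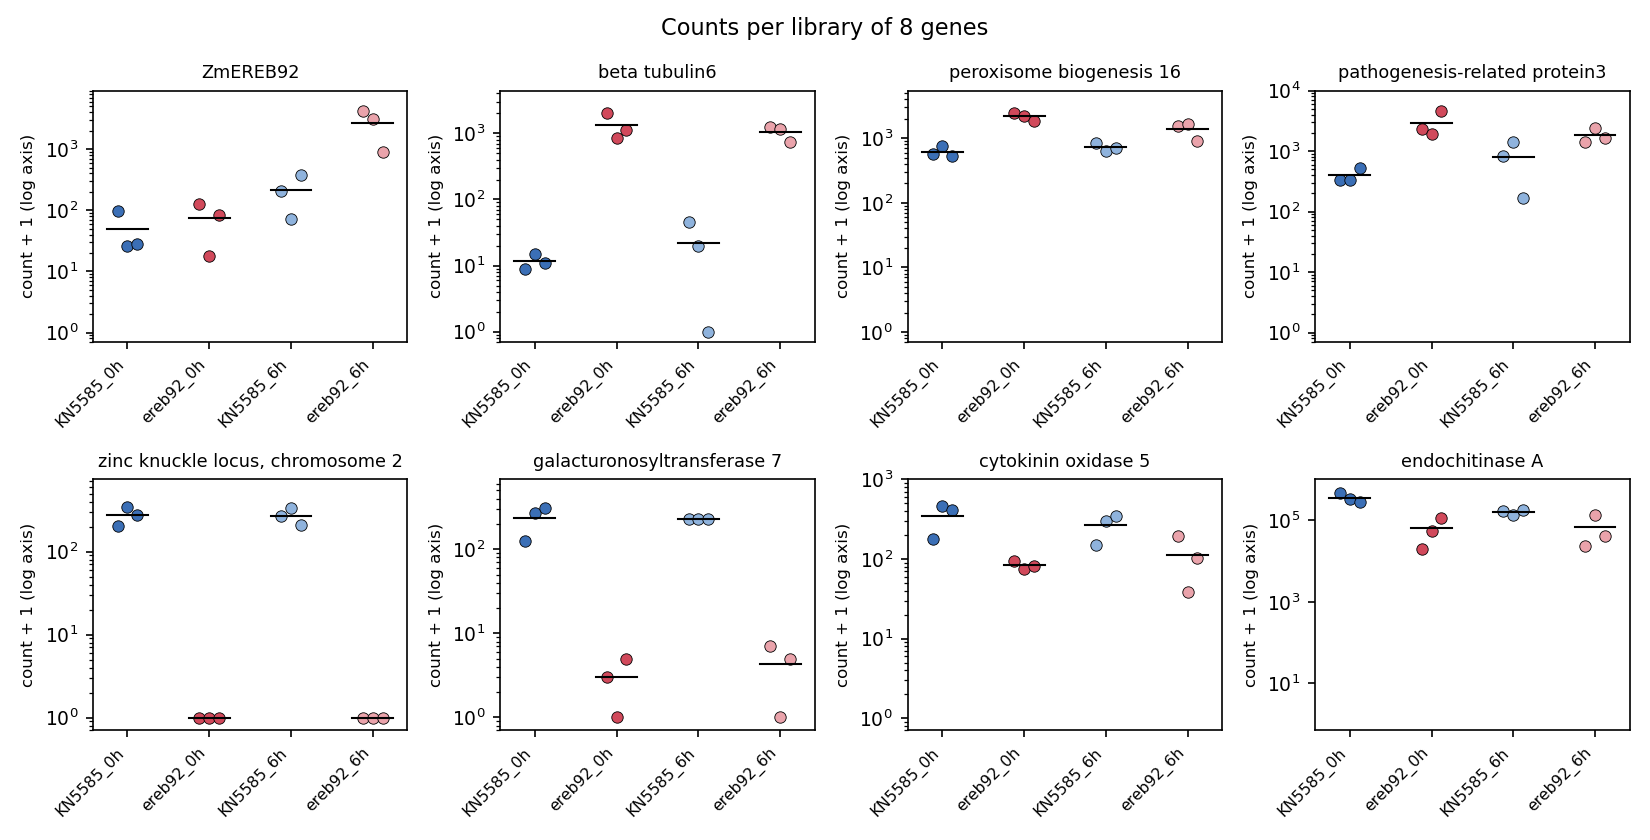
Counts per library of ZmEREB92, 6 DEGs (one of them the zinc knuckle locus at 133802017 of chromosome 2) and endochitinase A. The vertical axes are count + 1 (log axes), each point is a library, lines are group means and the 4 groups are the 2 genotypes in dry seeds (0h) and 6 h after imbibition (6h); the groups of 0 HAI overlap for ZmEREB92 and are separate for the other genes, of which endochitinase A did not pass edgeR's test (adjusted p = 0.196).

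Of the 22 genes lower in *ereb92*_0h, 11 had mRNA in the wild type only. Those with the smallest adjusted p were 2 unannotated loci of chromosome 2 with a zinc knuckle domain, a short zinc-binding motif of RNA- and DNA-binding proteins. The first (133802017 to 133803867) had 200, 340 and 276 counts in KN5585_0h and 0 in each *ereb92*_0h library, at least 104-fold lower (adjusted p = 0.00433). The other (39565983 to 39567943) had 211, 247 and 235 against 0, 0 and 1, a ratio of 814 with a 95% counting interval of 146 to 32214 (adjusted p = 0.00277). Close to the first lay another locus (133985205 to 133986671), with 96, 106 and 75 counts against 0. On chromosome 4, the locus at 112975029 had 65, 332 and 423 counts in KN5585_0h, that at 107060632, with gag domains of a retrotransposon, had 38, 226 and 230, and that at 115900531 had 34, 88 and 94, all against 0 in each mutant library. In these 3 loci KN5585_0h replicate 1, the library that stood apart, was the lowest. On chromosome 8, the loci at 108519407 and 149724227 had 95, 88 and 157, and 50, 73 and 60, both against 0. On chromosome 2, the locus at 201567553 had 111, 508 and 537 against 2, 0 and 2 counts.

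The annotated genes with mRNA in the wild type only were Zm00001d050474, described as the epsilon subunit of coatomer, the coat of vesicles that return from the Golgi to the endoplasmic reticulum, with 37, 76 and 47 counts against 0, and Zm00001d012613, described only as AM3, with 75, 133 and 206 against 0, 0 and 1. Another gene was nearly absent from the mutant. Zm00001d009808 (chromosome 8, 82342609 to 82346386), described as galacturonosyltransferase 7, which in Arabidopsis is part of an enzyme complex that makes pectin, had 126, 269 and 310 counts in KN5585_0h against 2, 0 and 4 in *ereb92*_0h, which is -7.01 on the log2 scale (SE 0.69, adjusted p = 0.0117).

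Lower but still present in the mutant were mRNAs of cytokinin breakdown, peptide transport and a receptor kinase. Cytokinin oxidase 5 (Zm00001d008862, chromosome 8, 22933354 to 22936966), of the enzymes that break down cytokinins, had 175, 459 and 415 counts in KN5585_0h against 93, 73 and 80 in *ereb92*_0h, or 25.4 ± 8.33 and 5.23 ± 0.255 CPM (SD, n = 3). Its log2 fold change was -2.28 (SE 0.31, adjusted p = 0.0376). Zm00001d043374, described as the peptide transporter PTR2, had 158, 116 and 108 against 23, 14 and 26 counts (log2 fold change -2.90, SE 0.42). Zm00001d002174, described as a cysteine-rich receptor-like protein kinase but listed with a lectin domain, had 451, 201 and 165 against 13, 21 and 7 (log2 fold change -4.61, SE 0.68). Zm00001d033818, a transmembrane and coiled-coil domains protein, was the most abundant gene lower in the mutant, with 1077, 1207 and 1115 against 602, 409 and 578 counts (2.57-fold, adjusted p = 0.0358). The ring finger gene Zm00001d048893 had 616, 788 and 912 against 381, 244 and 303. The others were Zm00001d002021 (277, 503 and 387 counts against 110, 71 and 55) and Zm00001d002032 (168, 290 and 172 against 45, 42 and 47), with no description, and 3 unannotated loci. The locus at 121409 to 124665 of chromosome 2 had 260, 385 and 317 counts against 60, 41 and 58 (log2 fold change -2.83, SE 0.24, adjusted p = 0.00663), and that at 8108818 to 8113164 of chromosome 1 had 563, 836 and 801 counts against 217, 171 and 356 (log2 fold change -1.80, SE 0.26). The one on chromosome 4 at 44968757 to 44971463 carried the domain of ribosomal protein L32 and had 633, 934 and 910 counts against 155, 136 and 245 (log2 fold change -2.44, SE 0.25, adjusted p = 0.0131).

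The gene groups typical of stored seed mRNA held no DEG by edgeR. Gene lists were formed from words in the deposited names and descriptions, and of 31 lists 26 held no DEG by edgeR. Of 46 tested LEA and dehydrin genes, 0 were DEGs, with 0 higher and 3 lower at the unadjusted p (0 and 2 DEGs by DESeq2). Their median log2 fold change was -0.38 (-0.16 without KN5585_0h replicate 1). Dehydrin DHN1 had 471855, 335219 and 424274 counts in KN5585_0h against 317893, 408670 and 250750 in *ereb92*_0h, with overlapping groups. Of 9 oil body genes, 0 were DEGs, 1 was higher and 1 lower at the unadjusted p (the same numbers by DESeq2), and the median was -0.45 (-0.66 to -0.11 with 1 library left out, -0.11 being the value without KN5585_0h replicate 1). Of 70 heat shock protein genes and 253 cytosolic ribosomal protein genes, 0 were DEGs by edgeR, with 3 and 2 higher and 5 and 7 lower at the unadjusted p (2 and 1 higher and 4 and 5 lower by DESeq2). Their medians were -0.15 and 0.03, with ranges of -0.21 to -0.03 and -0.06 to 0.11 when 1 library was left out.

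Storage proteins, which feed the seedling, lay on the lower side in the mutant without any passing edgeR's test. Of 23 tested genes, 0 were DEGs by edgeR and 7 were lower by DESeq2. At the unadjusted p, 0 were higher and 11 were lower (47.8%, against 5.95% of all genes in either direction). The log2 fold change was negative for 22 of the 23, with a median of -1.60, which was -0.81 without KN5585_0h replicate 2 and -2.06 to -1.45 without any other library. The summed level of the 30 storage protein genes listed, tested or not, did not follow this, at 19688 to 28796 CPM in KN5585_0h and 13156 to 72597 CPM in *ereb92*_0h. The exception was the embryo globulin Globulin-2 (Zm00001d034413), with 141383, 157554 and 212199 counts in KN5585_0h against 155917, 752091 and 236539 in *ereb92*_0h, of which replicate 2 was far above the others. Glutelin-2 (Zm00001d020592), of the endosperm, had 814, 2899 and 567 counts in KN5585_0h against 266, 519 and 428 in *ereb92*_0h (log2 fold change -1.91, SE 0.55, adjusted p = 0.297), and the zein gene Zm00001d035760 had 352, 1795 and 622 against 171, 304 and 263 (log2 fold change -1.99, SE 0.50, adjusted p = 0.216). The list of 33 tested starchy endosperm markers, which shares genes with the storage list, had 0 DEGs by edgeR and 5 lower by DESeq2. At the unadjusted p, 9 were lower and 0 higher. The median was -0.61, and -0.46 when only library size was used for scaling. With 1 library left out it was -1.06 (without *ereb92*_0h replicate 2) to -0.43 (without KN5585_0h replicate 2). The summed level of all 60 markers listed, tested or not, was 584 to 1136 CPM in KN5585_0h and 439 to 595 CPM in *ereb92*_0h, with overlap. The share of endosperm RNA in the libraries, and its part in these values, was not tested. Embryo and aleurone markers (53 tested) had 0 DEGs, 0 higher and 2 lower at the unadjusted p (1 lower by DESeq2) and a median of -0.34 (-0.13 without KN5585_0h replicate 1).

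One gene of the defence list passed edgeR's test. Of 73 tested genes of the pathogenesis-related and antimicrobial list, pathogenesis-related protein3 was the only DEG by edgeR, and 4 were higher and 7 lower at the unadjusted p (3 and 1 by DESeq2). Endochitinase A (Zm00001d003190), of the enzymes that cleave fungal chitin, was among the most abundant transcripts, with 466388, 325286 and 276944 counts in KN5585_0h against 20224, 55639 and 113775 in *ereb92*_0h. The groups did not overlap, and the log2 fold change of -2.77 (SE 0.67) did not pass edgeR's test (adjusted p = 0.196) but passed with DESeq2 (log2 fold change -2.78, adjusted p = 4.03e-05). The summed level of the list was 28768 to 55762 CPM in KN5585_0h and 6685 to 16437 CPM in *ereb92*_0h. Without endochitinase A, left out after its values were seen, the sums overlapped, at 8123 to 13403 and 5511 to 12355 CPM. Of 109 tested cytochrome P450 genes, CYP74A19 and CYP81A17 were DEGs by edgeR, both higher, while 4 were higher and 5 lower by DESeq2, and 4 higher and 11 lower at the unadjusted p. Of 45 tested glutathione S-transferase genes, 0 were DEGs, with 1 higher and 6 lower at the unadjusted p (0 and 1 by DESeq2) and a median of -0.41 (-0.63 to -0.27 with 1 library left out). The lists for proteases (228 tested), disease resistance proteins (57), UDP-glycosyltransferases (96), peroxidases (54), histones and cell cycle (159), cell wall (120) and pollen (22) held 0 DEGs by edgeR. At the unadjusted p these had 3, 1, 5, 3, 6, 8 and 1 higher and 7, 0, 5, 5, 0, 4 and 0 lower genes. By DESeq2 they had 1, 0, 3, 1, 2, 1 and 0 higher and 1, 0, 1, 1, 0, 1 and 0 lower. The cell wall list, formed from words, did not hold the DEGs Zm00001d005652 and galacturonosyltransferase 7. Its 0 is thus not a count over all genes of wall synthesis.

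Among regulators and hormone genes few passed the test. Of 444 tested WRKY, NAC, MYB, bHLH and bZIP genes, bHLH113 was the only DEG by edgeR, with 10 higher and 12 lower at the unadjusted p (6 and 2 by DESeq2) and a median of 0.04. Of 111 tested AP2/ERF genes, the family of *ZmEREB92*, 0 were DEGs, with 2 higher and 4 lower at the unadjusted p (1 and 3 by DESeq2) and a median of -0.01. The lists for gibberellin (22 tested), abscisic acid (123), ethylene (28) and auxin (83) held 0 DEGs by edgeR, with 0, 2, 0 and 1 genes higher and 2, 4, 1 and 3 lower at the unadjusted p, and 0, 1, 0 and 1 higher and 1, 1, 0 and 1 lower by DESeq2. The starch and sugar mobilization list (44 tested) held 0 DEGs by edgeR, 0 at the unadjusted p and 0 by DESeq2. The study's own set of hormone and amylase genes, chosen by it on these samples and so not independent, had 26 tested genes, of which 0 were DEGs, 0 were higher and 3 lower at the unadjusted p (0 by DESeq2). The gene *ZmEIL7* (Zm00001d003451), an EIN3-like factor of ethylene signalling, had 398, 1905 and 1690 counts in KN5585_0h against 1364, 3033 and 2071 in *ereb92*_0h (log2 fold change 0.59, SE 0.51). The alpha-amylase gene *ZmAMYa2* (Zm00001d031794) had 141, 229 and 188 against 135, 183 and 129 (log2 fold change -0.51, SE 0.29). In both the groups overlapped. Of 34 tested genes of the mitochondrial genome, 10 were higher and 4 lower at the unadjusted p, and 0 were DEGs by edgeR (2 higher by DESeq2). The summed level of the 230 genes listed for this genome, tested or not, was 340 to 4178 CPM in KN5585_0h, the highest in replicate 1, and 427 to 742 CPM in *ereb92*_0h. When only library size was used for scaling, the medians of the AP2/ERF, jasmonate, abscisic acid, auxin, protease, pathogenesis-related, cytochrome P450 and UDP-glycosyltransferase lists, and of the list of chromosome 8 genes, changed sign, so no direction is given for these lists.

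Unannotated loci made up a large part of the DEGs. They were 26 of the 60 (43.3%, 95% Clopper-Pearson interval 30.6% to 56.8%), 14 of 38 (36.8%) among those higher and 12 of 22 (54.5%) among those lower in the mutant. Among all genes tested the share was 2749 of 22610 (12.2%), and among genes past the unadjusted limits it was 17.8% of those higher and 24.4% of those lower. Put the other way, 0.946% of unannotated loci and 0.171% of annotated genes were DEGs. Without KN5585_0h replicate 3 the share was 75.0%, of only 4 DEGs, and with DESeq2 it was 22.02% of 545 DEGs (2.41% of the genes tested). Of the 26 unannotated DEGs, 12 had a protein domain, and 6 of the 60 DEGs (10.0%) had a domain of a transposable element, against 1.11% of all genes tested and 2.02% of the DEGs by DESeq2. The transposon-related list held 4 DEGs among 208 tested genes, with 3 higher and 1 lower in *ereb92*_0h (6 and 2 by DESeq2), and its median log2 fold change was -0.15 (-0.24 to -0.06 with 1 library left out).

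Most of the 26 lay apart from annotated genes. The nearest annotated gene was 60 to 340870 bases away, with a median of 17867, and for 17 of the 26 it was more than 5 kb away. Of the 9 within 5 kb, 7 had a neighbour that could be tested, and 0 of these neighbours were DEGs by edgeR, while 3 changed in the same sign as the locus. The closest was the ribosomal protein L32 locus, 60 bases from Zm00001d049796, whose log2 fold change was 0.57 against -2.44 for the locus. Whether the counting used the strand of the reads is not stated, so reads of overlapping or adjacent genes on opposite strands could not be separated with certainty.

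The DEGs were unevenly spread over the chromosomes. Chromosome 2 held 17 of the 60 (28.3%) and 11.8% of the genes tested, with 9 higher and 8 lower in the mutant, so 0.637% of its tested genes were DEGs. Chromosome 4 held 12 (0.522% of its tested genes), 6 in each direction, and chromosome 8 held 7 (0.338%), 2 higher and 5 lower. The shares on the other chromosomes were 0.0556% to 0.209%, and 2 of 195 tested genes on unplaced contigs were DEGs (1.03%). With annotated DEGs only, chromosome 2 had 9 of 34. The count on chromosome 2 was 39 without KN5585_0h replicate 1, 6 without KN5585_0h replicate 2, 1 without KN5585_0h replicate 3 and 10 without *ereb92*_0h replicate 2. At the unadjusted p, 9.29% of the tested genes on chromosome 2 passed, and 2.85% to 7.09% on chromosomes 1 and 3 to 10.

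**Figure D4:**
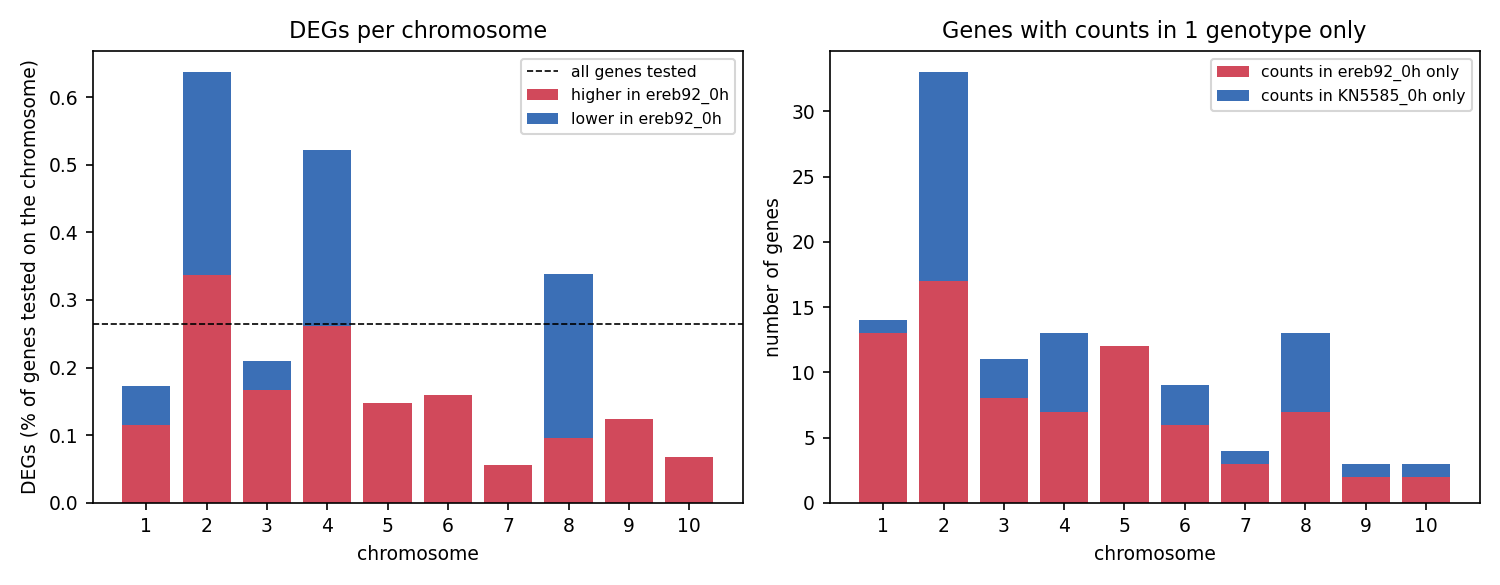
DEGs and genes with counts in 1 genotype only, by chromosome. The left panel gives DEGs as a percentage of the genes tested on each chromosome, with a dashed line at the 0.265% of all genes tested; the right panel gives the number of genes with at most 3 counts in every library of 1 genotype and at least 10 in every library of the other; red is higher or present in ereb92_0h and blue in KN5585_0h, and chromosome 2 has the highest bar in both panels.

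In places the DEGs were neighbours. Of 216 windows of 10 Mb with tested genes, 42 held a DEG and 2 held 3 or more (this window size was chosen after the positions were seen). The first 10 Mb of chromosome 2 held 6 DEGs among 283 tested genes, which were 2 unannotated loci, Zm00001d002021, Zm00001d002032, Zm00001d002174 and Zm00001d002184, 2 higher and 4 lower. The first 10 Mb of chromosome 4 held 4 DEGs among 135. These 4 formed the only run of at least 3 DEGs whose starts were at most 1 Mb apart, between 6138916 and 7228900 of chromosome 4. Within it Zm00001d048834, described as a DNA-binding subunit of RNA polymerases, had 181, 254 and 205 counts in KN5585_0h against 808, 982 and 986 in *ereb92*_0h (log2 fold change 1.90, SE 0.21, adjusted p = 0.0186). Its undescribed neighbour Zm00001d048836, whose start is 13375 bases away, had 121, 187 and 171 against 510, 489 and 688. The other members were math-btb9, also higher, and the ring finger gene Zm00001d048893, lower. Of the 19 tested genes in the run, 9 passed the unadjusted limits, against 5.95% of all genes tested. The run was picked for its 4 DEGs, which are among the 9. The median log2 fold change of the 19 was -0.06, so the run did not move in 1 direction. Over all chromosomes, 11 pairs of neighbouring DEGs had starts within 1 Mb, of which 7 pairs had the same direction. Such pairs were not counted over all genes tested, so nothing is read from these numbers.

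Presence in 1 genotype only was also counted without a test, over all 55529 genes. In 81 genes (0.146%) every *ereb92*_0h library had at least 10 counts and every KN5585_0h library at most 3, and in 38 genes (0.0684%) the reverse held, 0.214% together. Of these 119 genes, 27 were DEGs and 57 (47.9%) were unannotated loci, against 16.4% of the whole table. Chromosome 2 held 33 of them (27.7%), 17 present in the mutant only and 16 in the wild type only. By the same rule applied within a genotype, 11 genes were present in KN5585_6h but not KN5585_0h and 21 the other way round, and 131 in *ereb92*_6h but not *ereb92*_0h and 9 the other way round. The limit of 10 counts set the number, as 27 and 11 genes had at least 30 counts in every library of the present group. Leaving out 1 of the 6 libraries gave 114 to 189 genes present in the mutant only and 53 to 133 in the wild type only, the most without *ereb92*_0h replicate 2 and without KN5585_0h replicate 1.

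Several of these genes with known functions did not pass edgeR's test (they were chosen after their values were seen). Actin-7 (Zm00001d007792, chromosome 2), a protein of the actin cytoskeleton, had 71, 30 and 72 counts in *ereb92*_0h and 0 in each KN5585_0h library (at least 15.6-fold higher, adjusted p = 0.0541). A peroxisomal 3-ketoacyl-CoA thiolase (Zm00001d049882, chromosome 4), which carries out the last step of beta-oxidation, had 65, 120 and 27 against 0, and a peroxisomal acyl-CoA oxidase (Zm00001d003744, chromosome 2), which carries out the first, had 65, 16 and 17 against 1, 0 and 0. A hevein-like gene (Zm00001d048949), of chitin-binding defence proteins, had 30, 79 and 175 against 0. Its start, 10536338, lies close to that of pathogenesis-related protein3 on chromosome 4. Present in the wild type only were a putative AP2/EREBP factor (Zm00001d012584, chromosome 8, 31, 13 and 16 counts against 0, 1 and 1) and, side by side on chromosome 2, the lectin receptor kinase Zm00001d002181 (63, 18 and 25 against 0) and the F-box gene Zm00001d002182 (31, 30 and 10 against 0). With DESeq2 these 7 genes passed, at adjusted p of 2.32e-07 (the hevein-like gene) to 0.0109 (Zm00001d012584). A run of 5 such genes on chromosome 8 (176648813 to 177288351) began beyond beta tubulin6, which ends at 176580718. It held a cyclin gene (Zm00001d012560), an early nodulin-like gene (Zm00001d012602) and Zm00001d008162, present in the mutant only, and Zm00001d012584 and Zm00001d012613, present in the wild type only.

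Libraries of the same genotype also differed in whether a transcript was present at all. A gene counted as split when 1 library of a group had at most 3 counts and another of the same group at least 100. There were 154 such genes in KN5585_0h (1.09% of those with at least 100 counts in a library) and 177 in *ereb92*_0h (1.21%), of which 32.5% and 49.7% were unannotated loci (6.52% and 6.26% of the genes with at least 100 counts in a library). At 0 HAI 0 of the 60 DEGs were among them, but such a spread within a group works against passing the test, so nothing is read from this. At 6 HAI DEGs were split too, such as the locus at 275318805 of chromosome 1, with 147, 6 and 0 counts in *ereb92*_6h. In KN5585_0h, replicate 1 alone was the low library for 87 of the 154. In *ereb92*_0h the split genes were most frequent on chromosome 2 (47 genes, 2.80%) and chromosome 3 (33 genes, 2.10%), against 0.269% to 1.41% on the other chromosomes. In KN5585_0h the shares were 1.18% and 0.732% on these, and 0.642% to 1.72% on the others. In KN5585_6h the shares were 2.45% and 2.82% on chromosomes 2 and 3 and 1.40% to 2.61% on the others. In *ereb92*_6h they were 2.62% and 0.961% against 0.251% to 0.918%. The share on chromosome 2 thus lay above those of the others in both mutant groups and within their range in both wild-type groups. The high share on chromosome 3 was also seen in KN5585_6h. The cause was not tested. The split genes named here were chosen after their values were seen. The most abundant was Zm00001d000508 on chromosome 3, with 20635, 75051 and 52071 counts in KN5585_0h against 62944, 1 and 8 in *ereb92*_0h. Zm00001d006010 on chromosome 2 had 773, 912 and 1029 counts in KN5585_0h against 3, 1 and 1327 in *ereb92*_0h, and Zm00001d011601 on chromosome 8 had 495, 437 and 476 against 534, 500 and 0. In each of these 3 genes some mutant libraries were at the level of the wild type and others at or near 0. Whether the seeds of a library came from 1 or several plants is not stated.

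The libraries of 6 HAI are separate samples from those of 0 HAI, of the same 2 genotypes. Of the 60 DEGs, 54 could be tested there, 32 of the 38 higher and all 22 of those lower at 0 HAI. Of these 54, 53 (98.1%) had the same sign, against 63.5% of the 21512 genes tested at both times. In 20 of the 54 (37.0%) the change at 6 HAI passed the DEG limits in the same direction (0.679% of all genes tested at both times), and in 0 in the opposite direction. For comparison, 221 of 23066 genes (0.958%) were DEGs at 6 HAI, 0.815% higher and 0.143% lower in *ereb92*_6h. At the unadjusted p 41 of the 54 passed again in the same direction, against 7.96% of the 21512 genes tested at both times. Over all genes tested at 6 HAI, 11.3% passed in either direction (8.32% higher and 2.99% lower). The sizes were smaller at 6 HAI in 37 of the 54, with a median absolute log2 fold change of 3.33 against 5.82. Over all genes tested at both times 35.8% were smaller at 6 HAI, and the median rose from 0.31 to 0.49. The DEGs were chosen for large changes at 0 HAI, so nothing is read from this contrast. The difference between the times itself, an interaction in 1 fit of the 12 libraries, passed for 0 of the 54 by edgeR (6 of all 21512 genes). At an unadjusted p under 0.05 it was 10 of the 54 (18.5%), against 7.08% of all genes. In DEGs at 0 counts in 1 genotype at both times the interaction could hardly be estimated. For the locus at 671359 of contig B73V4_ctg142, for example, its SE was 723. Such genes had little room to pass, so these counts do not show that the difference was alike at both times. The number of DEGs seen again was 0 without KN5585_6h replicate 2 or *ereb92*_6h replicate 2, 1 without *ereb92*_6h replicate 1 and 13 without *ereb92*_6h replicate 3.

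**Figure D5:**
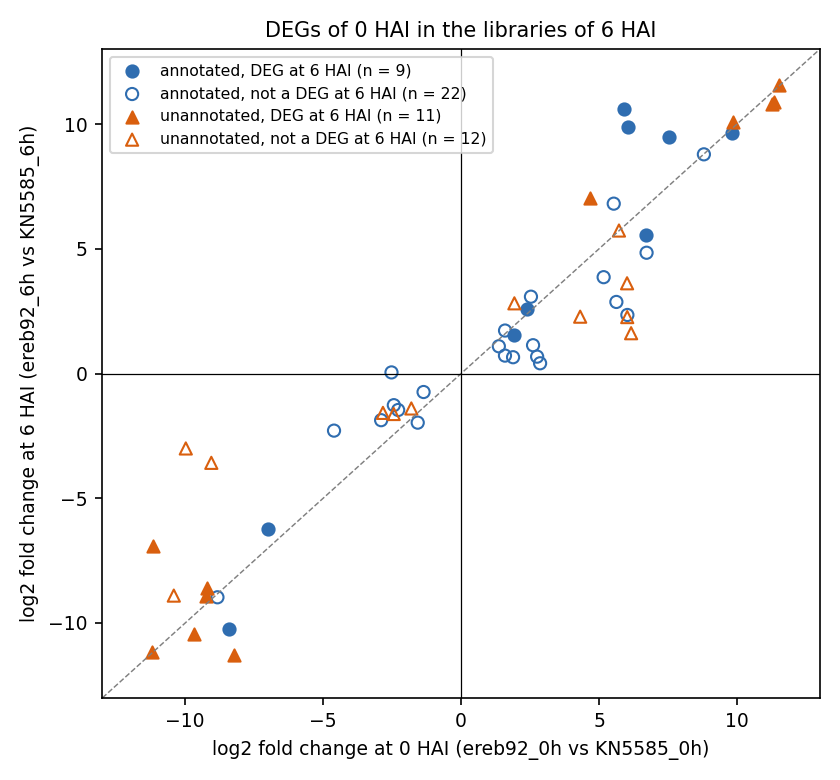
Log2 fold changes of the 54 DEGs of 0 HAI that could be tested at 6 HAI. The horizontal axis is ereb92_0h vs KN5585_0h and the vertical axis ereb92_6h vs KN5585_6h, from separate libraries; circles are annotated and triangles unannotated loci, filled symbols are also DEGs at 6 HAI (9 annotated and 11 unannotated) and the dashed line marks equal change; 53 points lie in the quadrants of equal sign.

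Several genes absent or nearly absent from 1 genotype at 0 HAI were absent or much lower there at 6 HAI too. The zinc knuckle locus at 133802017 of chromosome 2 had 270, 334 and 206 counts in KN5585_6h and 0 in each *ereb92*_6h library. The gypsy-type locus at 563002 of contig B73V4_ctg142 had 0 in each KN5585_6h library and 379, 436 and 390 in *ereb92*_6h. Beta tubulin6 had 44, 19 and 0 against 1227, 1165 and 726 (log2 fold change 5.55, adjusted p = 0.0429), and galacturonosyltransferase 7 had 231, 227 and 231 against 6, 0 and 4 (log2 fold change -6.22, adjusted p = 0.0269). Of the 119 genes present in 1 genotype only at 0 HAI, 46 (38.7%) met the same rule at 6 HAI, which 0.466% of all genes in the table met (228 in *ereb92*_6h only and 31 in KN5585_6h only), and 0 met it in the other direction. In 80 the group that lacked the mRNA at 0 HAI again had at most 3 counts in every library. Low counts are common, as only 23104 to 32080 of the 55529 genes had any count in a library of 6 HAI, so nothing is read from the 80. Of the DEGs with smaller changes, PGR5-like gene Zm00001d034900 (55, 76 and 60 against 625, 383 and 289) and Zm00001d048834 (264, 309 and 202 against 753, 997 and 742) passed the limits again, with log2 fold changes of 2.59 and 1.53. Peroxisome biogenesis protein 16 (log2 fold change 0.72, adjusted p = 0.322), peroxisome biogenesis protein 22 (0.65, adjusted p = 0.664), pathogenesis-related protein3 (1.14, adjusted p = 0.389) and cytokinin oxidase 5 (-1.46, adjusted p = 0.349) did not. The exception in sign was Zm00001d002021, at 125, 354 and 381 counts in KN5585_6h against 611, 40 and 368 in *ereb92*_6h, a log2 fold change of 0.05 after -2.52 at 0 HAI. Some DEGs higher in the dry mutant seeds were nearly gone at 6 HAI and were left untested there. The locus at 54544778 of chromosome 7 had 6, 0 and 6 counts in *ereb92*_6h after 527, 336 and 302 in *ereb92*_0h. That at 224493067 of chromosome 3 had 0, 15 and 0 after 55, 39 and 91. Also untested, with 1 mutant library at 0, were Zm00001d005652 (97, 0 and 79 counts in *ereb92*_6h), the sodium/calcium exchanger locus (191, 75 and 0) and Zm00001d010085 (59, 45 and 0).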

How the data were processed

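RNA of whole seeds was measured in the 2 genotypes at 2 times, with 3 biological replicates in each of the 4 groups; the libraries were poly(A)-enriched. The authors aligned reads to B73 RefGen_V4 with Hisat2 2.0.5 and counted them per gene with featureCounts 1.5.0-p3. Values deposited as counts are raw whole numbers for 55529 genes, and the deposited FPKM values were derived by the authors from them and the gene lengths. A further 20 columns hold the authors' own comparisons and group means (their DESeq2 1.20.0) and were not used. Whether counting used the strand, and what it did with reads that fit several genes, is not given in the sources used here.

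Libraries of 0 HAI were fitted alone in edgeR 4.0.16 (R 4.3.3, limma 3.58.1), with TMM factors, filterByExpr, glmQLFit and glmQLFTest, and p-values were adjusted over all genes tested. Libraries of 6 HAI were fitted in the same way, and the interaction was fitted over all 12. CPM were scaled by TMM, and correlations between libraries used log2 CPM with a prior count of 2. A fold change against a group at 0 is a bound that sets this group at 3 counts in each library, and with 1 to 3 counts in all the ratio has an exact 95% counting interval. Alternatives were RLE, upper-quartile and no factors, no filter, at least 10 counts in every sample, all 12 samples in 1 fit, a robust fit, DESeq2 1.42.0, the replicate block, no unannotated loci, and each replicate left out. The edgeR steps were tested on simulated data. Coordinates are as deposited.

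The comparison, lists and tests were chosen with earlier results of these data known. The naming rule took *ZmEREB92* and *ZmEF1a*, DEGs with the largest changes or smallest adjusted p, the most abundant unannotated DEGs, DEGs and top members of the lists, the chromosome 8 list, runs of DEGs and the genes with the highest FPKM. Further DEGs were added so that all 60 are accounted for. Gene lists were formed from words in the deposited names and descriptions.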

Additional observations from a re-analysis of the deposited data

How the results depend on the processing

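The number of DEGs depended on the processing. The 60 DEGs kept their sign in every alternative in which they could be tested. Their groups did not overlap and the alternatives used the same counts. The sign thus had little room to change, and nothing is read from it. All 60 were DEGs with DESeq2, also on the same counts. Higher and lower DEGs numbered 129 and 94 with no filter except at least 1 count, 7 and 5 with at least 10 counts in every sample, 21 and 14 in 1 fit on all 12 samples, 269 and 276 with DESeq2's Wald test and 22 and 8 without unannotated loci, where fewer genes were tested. With each replicate left out in turn there were 3 to 106 higher and 1 to 105 lower DEGs. Same-numbered libraries of the genotypes did not deviate together from their group means (correlations of -0.159, -0.107 and -0.101). Deviations from a mean of only 3 libraries depend on each other, so these values cannot show whether the numbers pair the samples. With the replicate block 1 gene was higher and 0 were lower, 0% were unannotated loci and 0 lay on chromosome 2. With the block there too, 0 DEGs of 0 HAI passed the limits at 6 HAI. All 60 had the same sign with the block at 0 HAI, from which nothing is read for the reason given above.

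On chromosome 2 the DEGs numbered 60 with no filter, 4 with at least 10 counts in every sample, 7 in the fit on all 12 samples, 120 with DESeq2 and 7 without unannotated loci, and 1 to 39 with a replicate left out. The share of unannotated loci among the DEGs was 22.02% with DESeq2 and 35.1% to 75.0% with a replicate left out. Genes with counts in *ereb92*_0h only numbered 27 with at least 30 counts, 46 with 0 in the other group and 114 to 189 with a replicate left out. Those in KN5585_0h only numbered 11, 22 and 53 to 133. DEGs past the limits again at 6 HAI numbered 161 with DESeq2 at both times, where 545 genes were DEGs at 0 HAI, and 0 to 23 with a replicate left out. The share of all genes that passed with DESeq2 at 6 HAI is not given here, so nothing is read from the 161. *ZmEREB92*, not a DEG, turned sign without KN5585_0h replicate 2 (-0.23), KN5585_0h replicate 3 (-0.17) or *ereb92*_0h replicate 1 (-0.36), in a range of -0.36 to 1.34. In each case the cause was not tested.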
